A study of Mus musculus with 6 samples.

Results

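miR-451a, miR-144 and the 2 copies of miR-486 (miR-486a and miR-486b) are the microRNAs most closely tied to the red cell lineage, and they were followed here in small RNA libraries of mouse sensorimotor cortex. Their 4 hairpins, of 1174 named hairpins in the GENCODE M21 annotation, were chosen by name. Every read of 17 to 34 nt found on the sense strand and without mismatch in one of them was counted by arm (the 5p or 3p side of the hairpin) and by length. SCI mice were C57BL/6J males of postnatal day 90 whose spinal cord had been cut through completely at C5/6 under isoflurane, 7 days before the cortex was taken. Control mice were of the same strain, sex and age and went through the same anaesthesia and exposure of the cord without damage to it. Each group had 3 libraries, made from samples collected individually. The protocols name killing by cervical dislocation and no washing out of the blood vessels, so the amount of blood in each sample is not known. In whole tissue, fewer red cells and less RNA per red cell cannot be told apart.

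miR-144 and miR-451a are cut from a shared primary transcript that the transcription factor GATA1 switches on in erythroid precursors, and both persist in circulating red cells, which have no nucleus. miR-451a is known for its route of maturation: its hairpin is too short for Dicer, so Argonaute 2 cuts it within the 3′ side and the exonuclease PARN trims the product back to the mature length. Because the cut product runs through the loop, its 3′ end can be read as a record of trimming. miR-486 lies in an intron of Ank1, the gene of the red cell membrane protein ankyrin 1, and is also made in skeletal and heart muscle.

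The mature sequences and the miR-451a hairpin are those of RefSeq (GRCm38.p6), shown because the seeds differ between the members and because the hairpin holds the path of trimming. In the mature sequences, capitals mark the seed, bases 2 to 8, which pairs with targets. In the hairpin, capitals mark the span of the 26-nt read, which starts at base 1 of the mature form and runs past its end.
mmu-miR-451a: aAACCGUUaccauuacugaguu
mmu-miR-144-5p: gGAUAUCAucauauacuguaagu
mmu-miR-144-3p: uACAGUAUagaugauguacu
Mir451a hairpin: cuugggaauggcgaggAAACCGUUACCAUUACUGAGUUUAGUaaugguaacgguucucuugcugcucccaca
No seed was shared among these 3 mature sequences. On GRCm38, Mir144 (ENSMUSG00000065401.1) lies at chr11:78073005-78073070 on the + strand, and Mir451a (ENSMUSG00000070065.1) follows it on the same strand at chr11:78073170-78073241, with 99 bases between them. Mir451b (ENSMUSG00000104813.1) covers the same bases as Mir451a on the − strand, and 0 reads fell in it. Mir486 (ENSMUSG00000070084.3, the a copy) lies at chr8:23142555-23142682 on the + strand within Ank1. Mir3107 (ENSMUSG00000106471.1, the b copy) lies opposite it at chr8:23142573-23142662 on the − strand, within the antisense gene Gm15816. The copies face each other on opposite strands, and most reads of miR-486-5p fitted both. Of 31454 reads of miR-486-5p, 31232 fitted both copies, 161 only the a copy and 61 only the b copy. Of 247 reads of miR-486-3p, 59 fitted both, 188 only the a copy and 0 only the b copy. The copies were therefore counted together.

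The libraries held 14628518, 23408028 and 19918863 reads in SCI 1, 2 and 3, and 22937179, 10585062 and 24480988 reads in control 1, 2 and 3, of which 73.2% to 79.2% were counted in miRNA arms. The neuronal miR-128-3p and miR-9-5p stood high in both groups, at 74800 and 63247 CPM (counts per 1000000 reads of miRNA arms, scaled by TMM) in SCI and 84713 and 80040 CPM in control, as the tissue label says. The deposited reads hold no molecular identifiers, so the limits given for counts of 0 cover counting error only. The p-values rest on the spread between these libraries.

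The red cell miRNAs made up a small and uneven part of the cortical miRNA. Together they took 0.0733%, 0.166% and 0.192% of the miRNA reads in SCI 1, 2 and 3, and 0.112%, 0.0961% and 0.115% in control 1, 2 and 3. The SCI libraries thus held both the lowest and the highest shares, on either side of all the control libraries. The members gave 175 distinct reads in 6 arms with reads. Of these arms, 5 were abundant enough to be tested among 694 in all. The sixth, miR-451a-3p, had 10 reads over the 6 libraries. Ranked by mean level over the libraries, miR-451a was number 116 of the 694 arms, miR-486-5p 166, miR-144-3p 194, miR-144-5p 343 and miR-486-3p 519.

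miR-451a, the most abundant of the members by matched reads, stood at 358, 820 and 999 CPM in SCI 1, 2 and 3, and at 757, 437 and 535 CPM in control 1, 2 and 3. The control values lay inside the range of the SCI values, whose lowest library was the lowest of the 6. The mean was 726 ± 331 CPM in SCI and 576 ± 164 CPM in control (SD, n = 3 each), and the log2 fold change of SCI over control was 0.33 ± 0.34 (SE; edgeR quasi-likelihood test, adjusted p = 0.694).
miR-486-5p stood at 225, 459 and 490 CPM in SCI 1, 2 and 3, and at 211, 378 and 339 CPM in control 1, 2 and 3. Replicate 1 was the lowest of its group in both groups. The means were 391 ± 145 CPM in SCI and 310 ± 87.3 CPM in control, a log2 fold change of 0.34 ± 0.31 (edgeR, adjusted p = 0.649).
miR-144-3p stood at 106, 302 and 282 CPM in SCI, and at 215, 166 and 252 CPM in control. As for miR-451a, SCI 1 was the lowest library and the control libraries lay between it and SCI 2 and 3. The means were 230 ± 108 CPM in SCI and 211 ± 43.3 CPM in control, a log2 fold change of 0.13 ± 0.35 (edgeR, adjusted p = 0.884). This sign rested on single libraries: the log2 fold change was −0.13 without SCI 2, −0.05 without SCI 3 and −0.03 without control 2.
miR-144-5p, the less used arm of that hairpin, stood at 14.2, 32.5 and 38.1 CPM in SCI and at 30.8, 16.1 and 18.1 CPM in control. The groups overlapped, with SCI 1 the lowest and control 1 near SCI 2. The log2 fold change was 0.38 ± 0.37 (edgeR, adjusted p = 0.665).
miR-486-3p was near the limit of counting, with 37, 47 and 62 reads in SCI and 42, 13 and 46 reads in control. Its levels of 3.11, 2.67 and 4.01 CPM in SCI lay above those of 2.54, 1.62 and 2.37 CPM in control. It was the only one of the 5 arms whose groups did not overlap, which 20.3% of all tested arms did (9.37% with SCI higher). Its log2 fold change was 0.55 ± 0.27 and its edgeR p was 0.0722, with an adjusted p of 0.407.

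**Figure D1:**
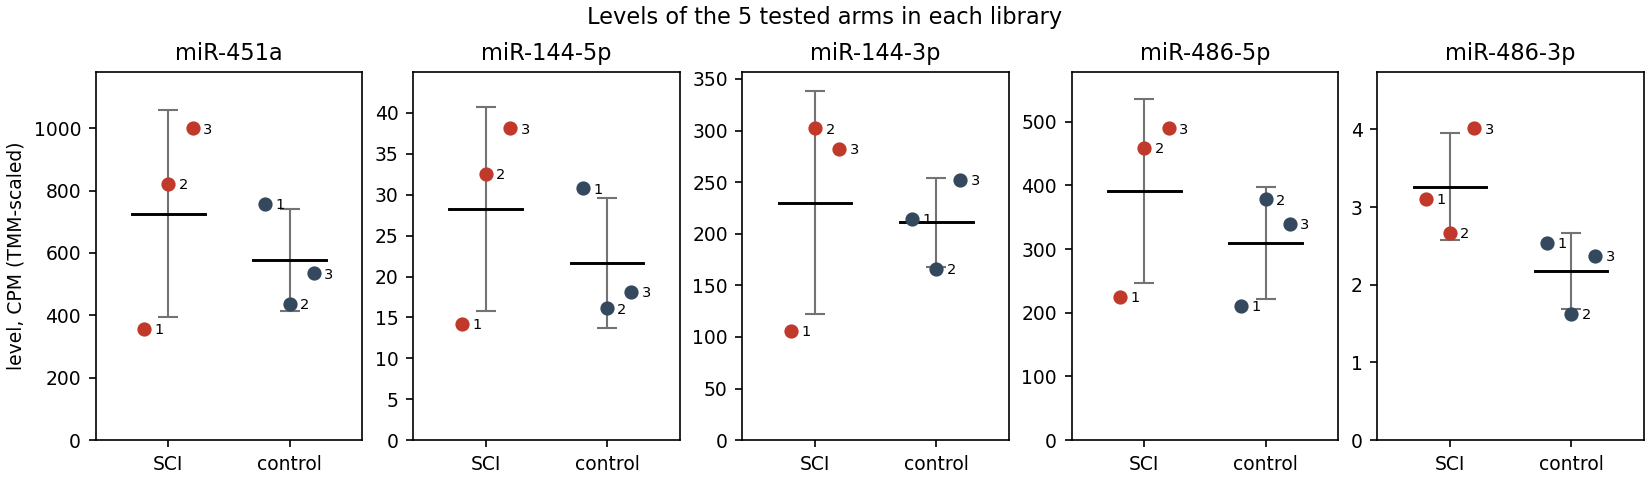
Level of each tested arm in TMM-scaled CPM (vertical axes from 0, each with its own scale) for SCI on the left and control on the right. Points are single libraries numbered by replicate, horizontal lines are means and error bars are SD (n = 3). In miR-451a, miR-144-5p and miR-144-3p, SCI 1 lies below and SCI 2 and 3 lie above every control library, and only miR-486-3p has groups that do not overlap.

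All 5 arms had a higher mean in SCI, and 0 of the 5 passed an adjusted p of 0.05 in edgeR. Over all 694 arms, 48.6% had a log2 fold change above 0 and 0% were called (smallest adjusted p 0.115), while 14.0% had an unadjusted p under 0.05. In this fit none of the 5 was under that unadjusted value. DESeq2 called 1.44% of all arms, and 0 of the 5. The highest library stood 2.32 times (miR-486-5p) to 2.85 times (miR-144-3p) above the lowest. With this spread among 3 libraries a group, the differences of the means were not distinguishable from the replicate error. Scaling by total counts in place of TMM raised the median log2 fold change of all arms to 0.10, against −0.02, and put 419 of 694 arms above 0, against 337. The median over the 5 members was 0.34 with TMM and 0.46 with total counts.

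The order of the levels within a library depended, for miR-486-5p, on which reads were counted. A large part of miR-486-5p reads carries bases at the 3′ end that the hairpin does not hold, as described further on, and matching without mismatch leaves these out. By matched reads alone, miR-451a lay above miR-486-5p in 6 of 6 libraries, by a mean of 0.87 ± 0.55 log2 units (SD over libraries). An exact sign-flip test over the 6 libraries gave p = 0.03125, the smallest it can give, and 0.0417 when adjusted over the 4 neighbouring pairs. The pairs and their direction follow the ranks by mean level in these same data, so these tests are no independent support for the order. With the reads carrying 1 to 3 added bases counted too, a choice made after the data were seen, miR-451a had 4303, 14612 and 15613 reads in SCI and 12718, 3534 and 10511 in control. On that count miR-486-5p had 4571, 13792 and 13085 reads in SCI and 5882, 4832 and 10668 in control. miR-486-5p was then the higher of the pair in SCI 1, control 2 and control 3, and the mean difference was 0.15 ± 0.53 log2 units (exact sign-flip p = 0.6875, adjusted 0.6875). These data thus give no fixed order of miR-451a and miR-486-5p.
By matched reads, miR-486-5p lay above miR-144-3p by 0.68 ± 0.45 log2 units, in all libraries but control 1, where it was lower by 0.02 (exact sign-flip p = 0.0625, adjusted 0.0625). With added bases counted it was higher in 6 of 6 libraries, by 1.41 ± 0.44 log2 units (exact sign-flip p = 0.03125, adjusted 0.0417). The lower part of the order held under both counts. miR-144-3p stood 3.16 ± 0.38 log2 units above miR-144-5p, and miR-144-5p stood 3.13 ± 0.53 above miR-486-3p, each in 6 of 6 libraries (exact sign-flip p = 0.03125, adjusted 0.0417). With added bases counted these differences were 3.15 ± 0.38 and 2.55 ± 0.63, also in 6 of 6 libraries each.

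The balance between the arms of a hairpin did not separate the groups. For miR-144, the 3p arm had 7.45, 9.29 and 7.40 reads for each 5p read in SCI 1, 2 and 3, and 6.97, 10.3 and 13.9 in control 1, 2 and 3. The groups overlapped, and the log2 ratio differed by −0.32 between SCI and control (exact permutation test, two-sided, p = 0.4, where 3 libraries against 3 allow none below 0.1). For miR-486, the 5p arm had 71.5, 170.2 and 121 reads for each 3p read in SCI, and 82.3, 224 and 142 in control. Replicate 1 was lowest and replicate 2 highest in both groups, with 13 to 62 reads of the 3p arm behind each ratio, and the log2 ratio differed by −0.28 (exact permutation p = 0.7). Of the ratios between hairpins, miR-144-3p over miR-451a compares products of 1 primary transcript that mature by different routes. It was 0.296, 0.368 and 0.283 in SCI, and 0.284, 0.380 and 0.472 in control (log2 difference −0.24, exact permutation p = 0.4). miR-486-5p over miR-451a was 0.629, 0.560 and 0.490 in SCI, and 0.279, 0.865 and 0.635 in control (log2 difference 0.06, exact permutation p = 1). The control libraries spread widely here, with control 1 the lowest and control 2 the highest of the 6, and without control 1 the log2 difference was −0.41. With added bases counted it was 0.13 (exact permutation p = 0.9).

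The 3′ ends of miR-451a formed a pair of groups of lengths with a dip between them. The reads that carry this pattern are shown as deposited, in DNA letters, with the bases past the 22-nt mature form in capitals.
miR-451a, 22 nt: aaaccgttaccattactgagtt
miR-451a, 23 nt: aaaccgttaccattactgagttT
miR-451a, 24 nt: aaaccgttaccattactgagttTA
miR-451a, 25 nt: aaaccgttaccattactgagttTAG
miR-451a, 26 nt: aaaccgttaccattactgagttTAGT
All of them start at position 78073186 of chromosome 11. The 22-nt read ends at 78073207 and the 26-nt read at 78073211, which is base 42 of the 72-base hairpin. The first added letter of the 23-nt read is the T that the hairpin holds there. A U joined to the 22-nt form after cutting can thus not be told apart from the template. The same holds for an A joined to the 23-nt form and a U joined to the 25-nt form.

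The first group of lengths ran over 21, 22 and 23 nt and held 76.0%, 70.6% and 74.4% of miR-451a reads in SCI 1, 2 and 3, and 74.4%, 73.3% and 75.7% in control 1, 2 and 3. The second ran over 25, 26 and, rarely, 27 nt and held 17.4%, 23.1% and 19.1% in SCI, and 21.2%, 19.2% and 17.6% in control. Between them, reads of 24 nt made up 2.98%, 2.90% and 2.95% in SCI, and 2.38%, 2.65% and 2.87% in control. The dip was thus seen in every library, and the share at 24 nt was lower than the share at 25 nt in all 6. At 24 nt the SCI libraries lay above all control libraries (difference of means 0.309 percentage points, exact permutation p = 0.1, the smallest possible). The share of all arms that differ so at a single length was not computed.
Reads of 22 nt were 30.9%, 28.2% and 31.5% in SCI and 25.8%, 30.2% and 31.1% in control. Reads of 23 nt were 29.7%, 30.5% and 27.7% in SCI and 42.8%, 27.5% and 30.3% in control. Reads of 21 nt were 15.4%, 11.9% and 15.1% in SCI and 5.75%, 15.6% and 14.3% in control. Control 1 stood apart from the other 5 libraries at 21 and 23 nt. Reads of 26 nt were 10.2%, 14.9% and 11.4% in SCI and 11.98%, 12.13% and 11.2% in control, and reads of 25 nt were 7.07%, 7.88% and 7.57% in SCI and 9.02%, 6.77% and 6.23% in control. Of the shorter reads, those of 20 nt made up 0.607% to 2.34% over the 6 libraries, and those of 19 nt, 18 nt and 17 nt at most 1.46%, 0.529% and 0.428%.

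**Figure D2:**
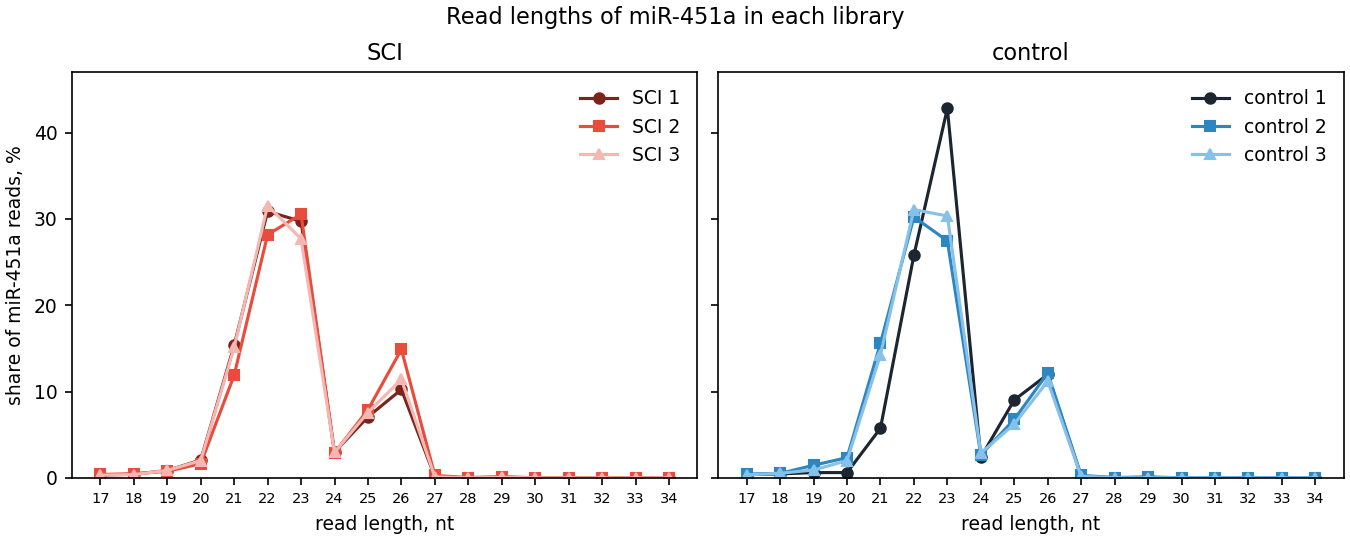
Share of miR-451a reads (%) at each read length (nt) in the 3 SCI libraries on the left and the 3 control libraries on the right, 1 line per library. Each line has a first peak at 22 or 23 nt, a dip near 2.4% to 3.0% at 24 nt and a second peak at 26 nt, and control 1 has its 23-nt share at 42.8%.

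Above 26 nt the reads nearly stopped. Reads of 27 nt made up 0.110% to 0.285% of each library's miR-451a, and reads of 28 nt or more numbered 0, 26 and 9 in SCI and 8, 5 and 3 in control. At 30 nt or more there were 0 reads in each library, which allows a share of at most 0.0704%, 0.0208% and 0.0194% of miR-451a reads in SCI 1, 2 and 3, and 0.0240%, 0.0856% and 0.0289% in control 1, 2 and 3. The libraries did hold other RNA of that size, since reads of 30 to 34 nt made up 0.584%, 3.66% and 2.31% of all reads in SCI and 1.33%, 0.611% and 0.543% in control. The share of miR-451a reads of 28 nt or more averaged 0.0795% ± 0.0919 in SCI and 0.0785% ± 0.0583 in control (SD, n = 3 each; exact permutation p = 1).

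The mean length of miR-451a was 22.73, 23.01 and 22.78 nt in SCI, and 23.11, 22.75 and 22.76 nt in control. The groups overlapped and the means differed by −0.03 nt (exact permutation p = 0.8). The sign of this difference turned without control 1, when it was 0.09 nt, and without SCI 1, when it was 0.02 nt. Control 1 was 0.31 nt longer than the mean of the other 5 libraries. Of 395 arms with at least 100 reads in every library, 322 were longer in control 1 than in the other libraries, by a median of 0.08 nt, and miR-451a ranked 11 from the top. miR-486-5p was 0.03 nt longer there, while miR-144-3p was 0.03 nt and miR-144-5p 0.02 nt shorter.

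The spread of lengths set miR-451a apart from the other members. The SD of its read length was 1.62, 1.75 and 1.67 nt in SCI, and 1.54, 1.75 and 1.65 nt in control, against a median of 0.918 to 0.961 nt over the 395 arms. It ranked between 7 and 17 from the widest in each library. By its share of 25-nt and 26-nt reads it ranked 5 of 395 in every library, while the median arm had 0% of such reads. The Dicer-cut members were narrower. The SD was 0.995 to 1.05 nt for miR-144-3p, 0.876 to 0.981 nt for miR-144-5p and 0.760 to 0.834 nt for miR-486-5p. No read of miR-144-3p or of miR-486-5p was of 25 nt or longer.

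miR-144-3p, the arm that carries the known targeting function of that hairpin, was a short miRNA in these libraries. Its 20-nt form made up 46.5%, 46.0% and 40.8% of reads in SCI, and 42.6%, 49.6% and 48.7% in control. The 19-nt form held 21.95% to 27.7% and the 18-nt form 15.9% to 24.3% over the 6 libraries. A further 6.39% to 8.52% were of 17 nt, the shortest length in the tables, so any shorter ends are not counted and the level given may leave out part of this arm. The 23-nt form of miR-144-5p made up 61.2% to 68.2% of its reads, and the 22-nt form 17.8% to 20.9%. miR-486-5p was mostly of 22 nt, at 57.3%, 61.6% and 58.9% in SCI and 57.4%, 54.3% and 56.1% in control. Its 21-nt form made up 31.5%, 28.3% and 29.7% in SCI and 33.4%, 33.3% and 32.4% in control, which did not overlap (difference of means −3.18 percentage points, exact permutation p = 0.1, the smallest possible). The share of all arms that differ so at 1 length was not computed. miR-486-3p was mostly of 21 and 22 nt.

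The 5′ end, which sets the seed, was nearly fixed in miR-451a and miR-486-5p and less so in miR-144-3p. The main 5′ end took 98.4%, 97.9% and 99.1% of miR-451a reads in SCI, and 98.2%, 98.0% and 98.3% in control. For miR-486-5p it took 98.7%, 98.6% and 98.9% in SCI, and 97.2%, 97.7% and 98.0% in control. For miR-144-3p it took 91.2%, 90.3% and 90.4% in SCI, and 89.0%, 89.4% and 89.1% in control.
In the last 2 arms, the lowest SCI library lay above the highest control library. Both exact permutation tests gave p = 0.1, the smallest that 3 against 3 allow. Over the 395 arms, 34.2% lay wholly higher in SCI and 3.80% wholly lower. The median arm stood at 96.9%, 97.0% and 96.8% in SCI and at 96.4%, 96.4% and 96.5% in control.
The reads of miR-144-3p off the main 5′ end mostly started 1 base before it, with 8.08%, 8.99% and 9.10% in SCI and 7.49%, 8.95% and 8.89% in control. This form moves the seed by 1 base, and its groups overlapped (difference of means 0.28 percentage points, exact permutation p = 0.5). Those that started 1 base inside the mature form made up 0.475%, 0.433% and 0.390% in SCI, and 2.70%, 1.05% and 1.57% in control. In this rarer form the seed is moved by 1 base the other way, and its share was lower in SCI (difference of means −1.34 percentage points, exact permutation p = 0.1). A rarer form, starting 3 bases inside, made up 0.0792%, 0.207% and 0.0458% in SCI and 0.507%, 0.301% and 0.306% in control (exact permutation p = 0.1). For miR-486-5p, reads that started 1 base inside made up 1.01%, 0.965% and 0.661% in SCI, and 2.35%, 1.85% and 1.59% in control (−1.05 percentage points, exact permutation p = 0.1). Some rare starts of miR-451a also separated the groups, on few reads. Reads starting 1 base before the main end averaged 0.164% in SCI and 0.101% in control (exact permutation p = 0.1). Those starting 6 bases inside averaged 0.0551% in SCI and 0.129% in control (exact permutation p = 0.1). Every start seen in each arm was compared, and those that separated the groups were picked out by that result. With many starts compared, some can reach an exact permutation p of 0.1 without any difference between the groups. The share of all arms that differ so at a single start was not computed. The main 5′ end of miR-144-5p took 90.6% to 94.6% of reads over the 6 libraries, with overlapping groups.

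Bases that the hairpin does not hold were common at the 3′ end of miR-486-5p and rare at that of miR-144 and miR-451a. Such bases, usually U or A, can be joined to finished miRNAs by terminal nucleotidyl transferases. The count takes in any unmatched last bases, whatever their source. Reads with 1 to 3 of them after a matched stretch of at least 17 bases made up 41.4%, 41.4% and 42.2% of miR-486-5p in SCI, and 40.6%, 37.3% and 38.2% in control. For miR-451a the share was 1.02%, 1.22% and 1.09% in SCI, and 1.604%, 0.877% and 1.14% in control. For miR-144-3p it was 0.864%, 0.747% and 1.13% in SCI, and 1.36%, 0.746% and 0.588% in control. For miR-144-5p it was 1.01% to 2.12% over the 6 libraries, on 2 to 11 such reads. Ends with a C or a G were 30.4% to 48.4% of the added ends of miR-451a and 0% to 36.0% of those of miR-144-3p. The shares of these 2 arms are thus not of U and A alone.
Among 375 arms with at least 100 reads in every library and at least 3 hairpin bases left after the main read, miR-486-5p ranked between 11 and 20 from the highest share in each library. The miR-451a arm ranked between 369 and 374, miR-144-3p between 371 and 375 and miR-144-5p between 359 and 373. By this count, the miR-144 and miR-451a arms lay at or near the bottom of the 375 arms in every library. miR-486-5p lay near the top. A U joined to the 22-nt end of miR-451a matches the hairpin and is not counted as added. The same holds for an A joined to its 23-nt end and a U joined to its 25-nt end. A U joined to the 23-nt end of miR-144-5p or to the 19-nt end of miR-144-3p is not counted either. How far this lowers their shares and ranks was not tested.

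**Figure D3:**
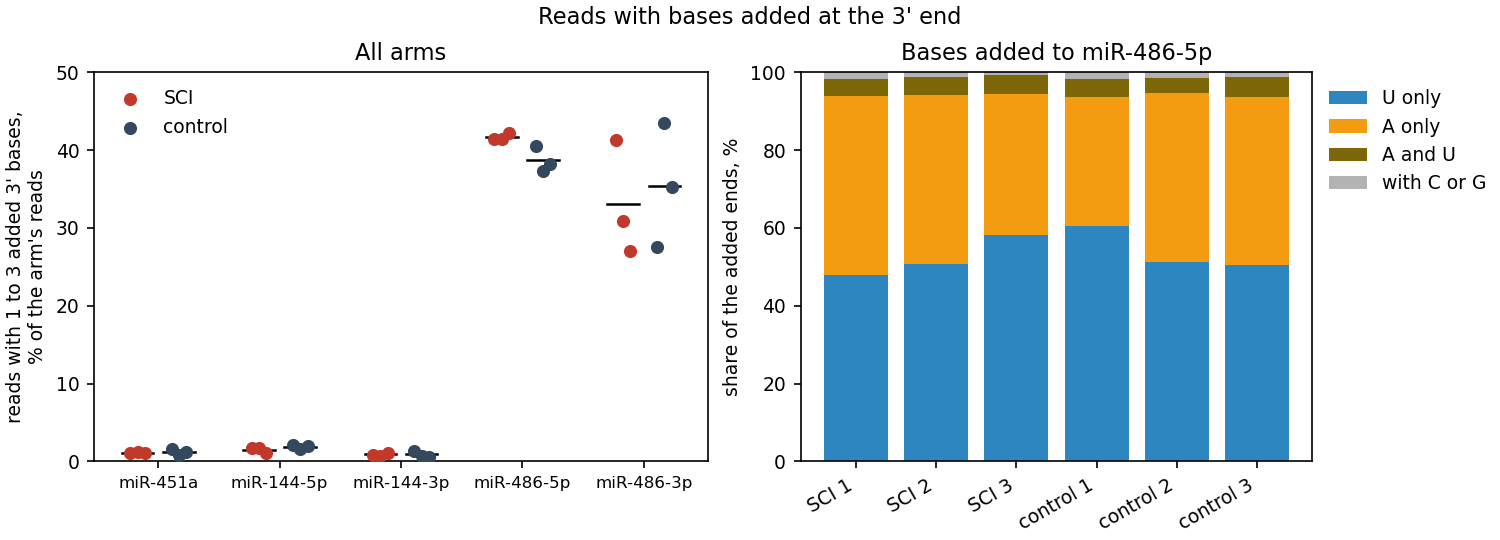
Left, share of each arm's reads with 1 to 3 added 3′ bases (%), with points for libraries and lines for means, SCI left of control. Right, what the added bases of miR-486-5p were in each library, as a share of its reads with added bases (%). The miR-486-5p shares lie between 37.3% and 42.2%, those of miR-451a and both miR-144 arms at 2.12% or below, and U-only and A-only ends make up nearly all added ends of miR-486-5p.

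All SCI libraries had a larger miR-486-5p share than all control libraries, at 41.6% ± 0.458 in SCI and 38.7% ± 1.69 in control (SD, n = 3 each). The difference was 2.97 percentage points (exact permutation p = 0.1, the smallest possible). Over the 375 arms, 18.1% lay wholly higher in SCI, and the median arm stood at 12.5%, 11.7% and 11.9% in SCI and 11.6%, 10.7% and 11.1% in control.
Most of the added ends were of 1 base, at 84.5% to 87.1%, and followed the 22-nt form, at 93.3%, 94.8% and 95.7% in SCI and 89.5%, 91.2% and 93.1% in control. Among reads whose matched part was 22 nt, 53.5%, 52.1% and 54.2% in SCI and 51.6%, 50.0% and 50.6% in control carried added bases. More than 1 in 2 of the full-length ends thus had them in all libraries but control 2, at 49.98%.
Ends of U alone were 47.9%, 50.7% and 58.1% of those added in SCI, and 60.4%, 51.1% and 50.6% in control. Ends of A alone were 46.0%, 43.5% and 36.4% in SCI, and 33.2%, 43.6% and 43.1% in control. The groups overlapped for both. Ends with a C or a G were 0.761% to 1.80%. When the reads with added bases were counted in every arm, a choice made after the data were seen, the log2 fold change of miR-486-5p was 0.40 ± 0.29 (edgeR, adjusted p = 0.549).
The few added ends of miR-144-3p numbered 11, 40 and 50 reads in SCI, and 49, 10 and 29 reads in control. A alone was added in 6, 17 and 19 of them in SCI, and in 10, 2 and 7 in control, a mean share of 45.0% ± 8.55 in SCI and 21.5% ± 2.28 in control (SD, n = 3 each; exact permutation p = 0.1). Of 350 arms with at least 10 reads with added bases in every library, 16.9% did not overlap in this share, 13.1% with SCI higher. It is 1 of several features of the added ends compared, on few reads. For miR-486-3p the share with added bases was 27.1% to 43.5% on 10 to 26 such reads.

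Over the 6 libraries the members of the shared transcript moved together. The log2 CPM of miR-144-5p followed that of miR-451a with Pearson's r = 0.988 (exact permutation p = 0.00139, 0.00556 adjusted over the 4 relations computed) and Spearman's rho = 1 (exact permutation p = 0.00278, adjusted 0.0111). Without SCI 1 and SCI 3, the libraries farthest from the median of miR-451a, r was 0.988. For miR-144-3p, r was 0.865 (exact permutation p = 0.0222, adjusted 0.0444) and rho 0.886 (exact permutation p = 0.0333, adjusted 0.0667), and r was 0.723 without those 2 libraries. miR-486-5p did not share this pattern beyond the spread: its r was 0.499 (exact permutation p = 0.306, adjusted 0.306) and rho 0.60 (exact permutation p = 0.242, adjusted 0.242), and r was −0.16 without the same libraries. Control 1 was the library that differed, with the third highest miR-451a and the lowest miR-486-5p of the 6. All points share their library and its scaling.

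**Figure D4:**
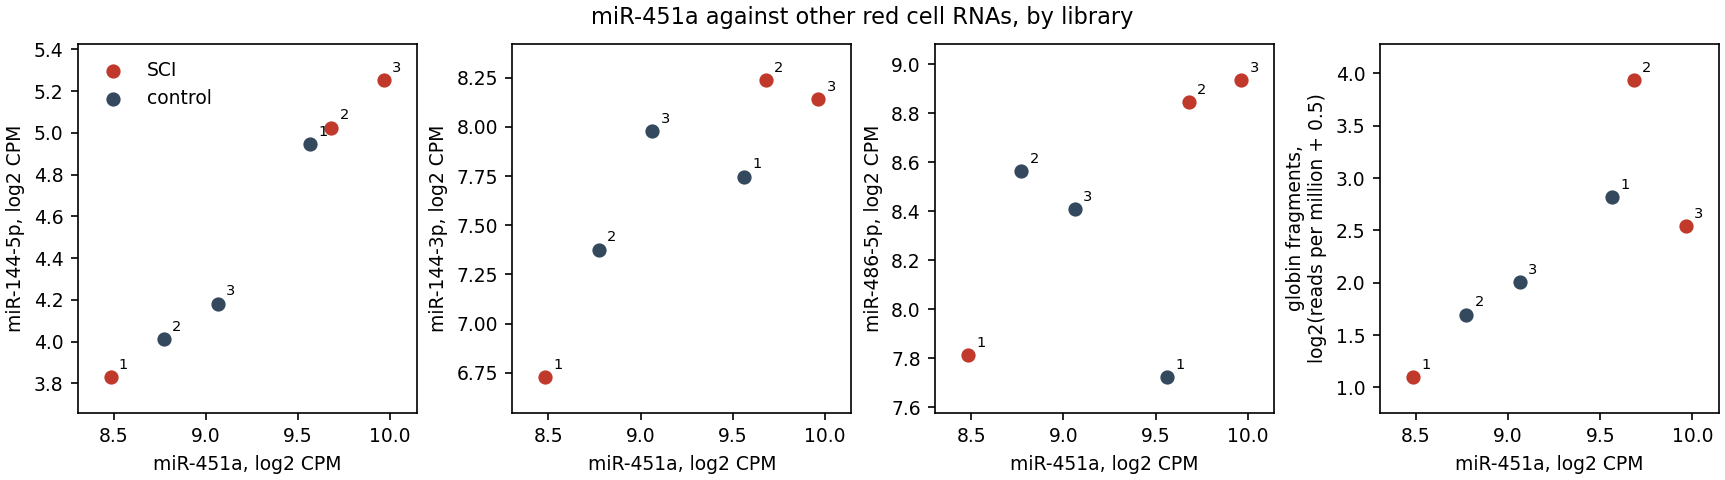
Level of miR-144-5p, miR-144-3p, miR-486-5p and globin mRNA fragments (vertical axes, log2 units) against that of miR-451a (horizontal axes, log2 CPM), 1 point per library numbered by replicate. Pearson's r is 0.988, 0.865, 0.499 and 0.812 in that order, and control 1 lies low for miR-486-5p.

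Of 413 arms with a mean of at least 10 CPM that are no members, the arm most like miR-451a over the 6 libraries was miR-874-3p, with r = 0.93, then miR-503-5p with 0.86, miR-146b-5p with 0.84, miR-134-5p with 0.77 and miR-362-5p with 0.76. Set among them, miR-144-5p had 0 arms above it and miR-144-3p 1, whereas miR-486-5p had 39 and miR-486-3p 40. These likenesses were the highest of many over 6 libraries and are given as a description. The closest, miR-874-3p, spanned only 96.3, 115 and 131 CPM in SCI and 108, 98.3 and 103 CPM in control, a far narrower range than that of miR-451a.

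Fragments of globin mRNA gave a measure of red cell RNA that does not rest on miRNAs. Alpha and beta globin together gave 24, 347 and 106 reads in SCI and 150, 29 and 86 reads in control, or 1.64, 14.8 and 5.32 RPM (reads per 1000000 reads of the library) in SCI and 6.54, 2.74 and 3.51 RPM in control. The groups overlapped, with the lowest and the highest library both in SCI, as for miR-144-3p. Their means were 7.26 ± 6.80 RPM in SCI and 4.26 ± 2.01 RPM in control (SD, n = 3 each; exact permutation p = 0.7), and without SCI 2 the difference turned to −0.78. Alas2, the erythroid enzyme that starts haem synthesis, gave 0 to 2 reads a library. Over the libraries, globin fragments followed miR-451a with r = 0.812 (exact permutation p = 0.0417, adjusted 0.0556) and rho = 0.829 (exact permutation p = 0.0583, adjusted 0.0778), and r was 0.926 without SCI 1 and SCI 3. The share of all reads of 30 to 34 nt moved with the globin reads in part, at 3.66% in SCI 2, the highest of both, and 0.584% in SCI 1. Its part in the relation was not tested.

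Lists of miRNAs of red cells and of other cell types were read from the same fit, and none of their members passed. Of 20 other miRNAs abundant in red cells and erythroid cells, 19 were tested, 11 had a higher and 8 a lower mean in SCI, 0 passed in edgeR, and their median log2 fold change was 0.02, against −0.02 over all 694 arms. miR-106b-5p stood at 569.7 ± 1.52 CPM in SCI and 412 ± 68.3 CPM in control (log2 fold change 0.47 ± 0.15, edgeR adjusted p = 0.257). miR-25-3p, from the same host gene, stood at 433 ± 30.8 CPM in SCI and 559 ± 87.4 CPM in control (−0.37 ± 0.15, edgeR adjusted p = 0.301). These miRNAs are also made in cortical cells, and their summed level of 34325 to 40484 CPM was far above that of the members.
Since miR-486 is also a muscle miRNA, the muscle list was set beside it. Of 6 muscle miRNAs, 5 counts could be tested (miR-133a-3p and miR-133b-3p share one), 4 had a higher and 1 a lower mean in SCI, 0 passed in edgeR and the median log2 fold change was 0.12. Their summed level was 630, 648 and 579 CPM in SCI and 689, 609 and 617 CPM in control. The groups overlapped, and control 1, the lowest library for miR-486-5p, was the highest for this list. miR-206-3p, made in skeletal muscle, stood at 4.55 ± 1.54 CPM in SCI and 2.41 ± 0.319 CPM in control (0.90 ± 0.29, edgeR adjusted p = 0.257).
Of 7 leukocyte miRNAs, which would come with blood too, 2 were higher and 5 lower in SCI on average, 0 passed and the median was −0.26. Their summed level was 3625, 5332 and 4456 CPM in SCI and 3581, 3303 and 4197 CPM in control, which overlapped. miR-342-3p, the 1 of the 7 with an unadjusted p under 0.05, stood at 2762 ± 651 CPM in SCI and 1590 ± 501 CPM in control (log2 fold change 0.80 ± 0.24, edgeR adjusted p = 0.257). miR-155-5p stood at 24.0 ± 4.56 CPM in SCI and 17.1 ± 3.99 CPM in control (0.50 ± 0.22, edgeR adjusted p = 0.358), and miR-150-5p at 974 ± 80.2 CPM in SCI and 1180.4 ± 125 CPM in control (−0.28 ± 0.13, edgeR adjusted p = 0.380). miR-223-3p stood at 17.8 ± 1.06 CPM in SCI and 21.4 ± 3.26 CPM in control (−0.26 ± 0.18, edgeR adjusted p = 0.522). Of 6 miRNAs of endothelial and mural cells, 2 were higher and 4 lower (0 passed, median −0.26). Of 5 neuronal miRNAs 2 were higher and 3 lower (0 passed, median −0.10), and of 3 oligodendrocyte miRNAs 0 were higher and 3 lower (0 passed, median −0.29).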

How the data were processed

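The authors deposited, for each of the 6 libraries, a table of distinct read sequences with their whole-number read counts, per the file headers. Libraries were made with HD adapters, whose degenerate ends lower ligation bias, per the labels' protocols. The build GRCm38 comes from the submitters' processing notes. For the trimmer, the aligner and any length limits, the sources used here name nothing. The tables hold reads of 17 to 34 nt only, so shorter and longer forms are missing.

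Reads were matched without mismatch to GENCODE M21 hairpins and counted by the hairpin side of their midpoint. Arms that share at least 50% of reads were merged, and reads still in several arms (0.115% to 0.173%) were left out. Differences were tested with edgeR 4.0.16 in R 4.3.3 (quasi-likelihood test, TMM, filterByExpr with a minimum count of 10) over 694 of 1430 arms, with Benjamini-Hochberg adjustment. The SE was taken from the test, as the log2 fold change over √F. Shares, lengths and log2 ratios (pseudocount 0.5) were set against each other in exact permutation tests of the group means, two-sided. Globin reads were those found in globin transcripts and in no other gene (468 distinct reads, with 24 left out). Scripts were tested on simulated data. Alternatives used DESeq2 1.42.0 and limma 3.58.1. Python 3.11.15, pandas 2.3.3, numpy 2.4.6, scipy 1.17.1 and matplotlib 3.10.9 were used.

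The members, lists and tests were chosen with earlier results of these data known. Named were all member arms, the 5 arms most like miR-451a by Pearson's r, and up to 4 members of each list by p. Some of these list members are given only in the counts. The main fit did not pair the samples by replicate number.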

Additional observations from a re-analysis of the deposited data

How the results depend on the processing

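Of 163 alternatives over the results given, 138 kept the direction and the side of the threshold and 18 turned the direction. The count of arms called, 0 in edgeR, was 31 with no filter on low counts and 10 with DESeq2, and none of the 5 member arms was among those called. edgeR with the replicate block called 2 arms. As deviations from the group mean, same-numbered libraries correlated at 0.17, −0.04 and −0.04, and differently numbered ones at −0.17 to 0.22. With 3 libraries a group, these values cannot decide whether the replicate numbers pair the samples.

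The difference in the share of miR-451a reads of 28 nt or more (0.000958 percentage points) was −2.54 with each distinct read counted once, −0.0451 with added bases counted and −0.0352 for 27 nt or more. The difference in its share of reads with added bases (−0.0978) was 0.897 with each distinct read counted once. The cause was not tested. With added bases counted, the level of miR-451a over miR-486-5p was no longer past the threshold (0.15 log2 units) and that of miR-486-5p over miR-144-3p was (1.41). The log2 fold change of miR-451a was 0.09 when only its most abundant read, of 23 nt, was counted.

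Leaving out 1 library at a time gave 0 to 7 arms called (7 without SCI 2, 2 without SCI 1). Without SCI 1, the unadjusted edgeR p was 0.0204 for miR-451a, 0.0340 for miR-486-5p and 0.0386 for miR-144-5p (adjusted p 0.506 each). It was 0.0573 for miR-144-3p and 0.105 for miR-486-3p, and 66 of 723 arms were under 0.05. For miR-486-3p the unadjusted edgeR p was 0.0376 with total counts and 0.0439 with the replicate block. The log2 fold changes ranged over 0.03 to 0.65 for miR-451a, −0.13 to 0.46 for miR-144-3p, 0.11 to 0.70 for miR-144-5p, 0.11 to 0.60 for miR-486-5p and 0.38 to 0.67 for miR-486-3p. The difference in mean length of miR-451a ranged over −0.118 to 0.0859 nt, that in its share of 28 nt or more over −0.0494 to 0.0407 and that in added bases over −0.263 to 0.1004 percentage points. The log2 differences ranged over −0.58 to −0.08 for the miR-144 arm ratio, −0.65 to 0.075 for the miR-486 arm ratio, −0.43 to −0.07 for miR-144-3p over miR-451a and −0.41 to 0.40 for miR-486-5p over miR-451a. The difference in globin reads ranged over −0.783 to 5.81 RPM. Depth limits miR-486-3p, with 13 to 62 reads a library, and the added ends of both miR-144 arms.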
